A study of Rattus norvegicus with 12 samples.

Results

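DNA replication and mitosis genes encode the proteins that copy the genome in S phase and separate the copies in M phase. Genes were included where the array table gave a listed gene as a probe's symbol or synonym, and the brightest probe over all arrays stood for each gene. Of 44 listed genes 35 had such a probe, 18 of 23 replication genes and 17 of 21 mitotic genes, among 21684 genes on the array. Cdk1 stood in the table under the older name Cdc2. Gins1, Gins2, Cdt1 and Aurka were found only through older symbols in RefSeq and are described separately at the end, and Rrm1, Tk1, Ccnb1, Top2a and Birc5 are not analysed here.

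RNA came from cultures of marrow of male Wistar-Hannover rats, grown into osteoblasts (the cells that lay down bone matrix) or osteoclasts (the cells that resorb it), and was hybridised to Illumina rat arrays. The SCI+FES rats had a spinal cord transection, a stimulator implanted in week 14 after it and, from week 16, functional electrical stimulation of muscle for 60 minutes on each of 7 days. The SCI rats had the transection, the implant surgery with ablation of the gastrocnemius but no stimulator, and were sampled at week 17. The sham rats had the surgery without transection and were sampled 12 to 14 weeks later. Exact ages are not given. RNA of 3 to 4 rats was pooled for each treatment and culture type, and each of the 6 pools was read on 2 arrays, 12 in all. The duplicates share 1 pooled RNA, so a treatment comparison sets 1 pool against 1 pool and has no test, and the standard errors given with it cover array error only. Osteoblast pools are labelled as day 10 of culture, and day 3 is given for the SCI+FES and sham osteoclast pools but not for the SCI osteoclast pool. The original sample number was 1372 for both sham pools, 1314 for the SCI osteoblast pool and 1302 for the other 3 pools, and its meaning is not given. Against sham, treatment cannot be told apart from this number or from the time of collection. SCI+FES and SCI pools differ in the number in osteoblast cultures and share it in osteoclast cultures. In every treatment comparison, differences between the animals pooled cannot be told apart from treatment.

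At a detection p of 0.01 or less, 33.7% to 35.0% of probes were detected on osteoclast arrays and 36.4% to 38.3% on osteoblast arrays. Before normalisation the median signal was highest in sham within each culture type, with 12.3 to 13.1 in SCI+FES, 12.9 to 13.3 in SCI and 16.9 to 17.0 in sham osteoblast pools, and 9.84 to 10.6 in SCI+FES, 11.1 to 11.8 in SCI and 13.4 to 14.3 in sham osteoclast pools. Duplicates correlated at r = 0.992 to 0.994 over all genes. Values are log2 intensities after background modelling and quantile normalisation. Osteoclast pools had less Sparc than osteoblast pools (7.62 against 14.00, 3 pools each) and less Col1a1 (6.65 against 12.48), and had more Mmp9 (14.17 against 7.82) and Ctsk (15.05 against 12.49). The osteoblast regulators Runx2 and Sp7 were not detected in any pool, and all 8 macrophage markers with a probe were detected in the 3 osteoblast pools. In such bulk RNA, a higher share of dividing cells and more RNA per cell cannot be told apart.

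By way of background, cells commit to replication at the G1/S boundary, when E2F transcription factors switch on genes for origin licensing, the replicative helicase, the polymerases and the nucleotide supply. Genes for mitosis peak later, in G2 and M, largely under the DREAM and MuvB complexes, which bind promoters through the cell cycle homology region (CHR), often with NF-Y at nearby CCAAT boxes. Osteoblast precursors divide and then leave the cycle as they mature, and osteoclasts form by fusion of precursors that have stopped dividing.

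RefSeq promoter windows (build GRCr8, 250 bases before to 50 bases after the annotated start) were found for 28 of the 35 genes, 15 replication and 13 mitotic. None was found for Rrm2, Ccna2, Ube2c, Mcm4, Cdc6, Aurkb or Tpx2. Each window was searched on both strands for E2F letters (TTTNGCGC or TTTCCCGC), the CHR letters TTTGAA and the CCAAT letters. E2F letters occurred in 9 of 15 replication windows (60.0%), in 1 of 13 mitotic windows (Cdk1) and in 2.34% of all 27457 windows of that length. CHR letters occurred in 9 of 13 mitotic windows (69.2%), 2 of 15 replication windows and 18.1% of all windows. CCAAT occurred in 10 of 13 mitotic windows, 8 of 15 replication windows and 37.7% of all windows. CHR and CCAAT letters together occurred in 8 of 13 mitotic windows (61.5%), in 0 of 15 replication windows and in 7.25% of all windows. These are matches of letters, which describe the windows and not binding. The windows are printed here for the genes with the largest SCI-to-sham differences in osteoblast cultures that had one, so that the letters of each class can be read in place. They are Mcm6 (chr13:42404303-42404602, minus strand), Pole2 (chr6:93435312-93435611, minus strand) and Mcm2 (chr4:122918045-122918344, minus strand) for replication, and Prc1 (chr1:143659231-143659530, plus strand) and Cdc20 (chr5:137255750-137256049, minus strand) for mitosis. Each runs 5′ to 3′ in the direction of the gene, with matches in capitals. Overlapping matches are merged, as in Mcm6 and Mcm2, where a forward and a reverse E2F match share letters.
Mcm6: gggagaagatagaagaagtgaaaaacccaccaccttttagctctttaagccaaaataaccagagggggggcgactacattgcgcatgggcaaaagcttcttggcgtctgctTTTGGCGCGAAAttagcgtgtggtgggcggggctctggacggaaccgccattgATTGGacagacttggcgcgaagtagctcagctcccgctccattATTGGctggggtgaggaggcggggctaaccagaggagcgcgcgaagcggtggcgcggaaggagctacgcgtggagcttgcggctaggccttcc
Pole2: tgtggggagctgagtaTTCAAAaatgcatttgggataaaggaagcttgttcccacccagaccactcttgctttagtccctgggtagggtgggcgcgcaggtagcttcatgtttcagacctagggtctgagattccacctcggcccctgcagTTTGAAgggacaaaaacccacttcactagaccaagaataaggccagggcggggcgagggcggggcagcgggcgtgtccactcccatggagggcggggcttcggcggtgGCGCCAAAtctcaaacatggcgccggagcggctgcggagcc
Mcm2: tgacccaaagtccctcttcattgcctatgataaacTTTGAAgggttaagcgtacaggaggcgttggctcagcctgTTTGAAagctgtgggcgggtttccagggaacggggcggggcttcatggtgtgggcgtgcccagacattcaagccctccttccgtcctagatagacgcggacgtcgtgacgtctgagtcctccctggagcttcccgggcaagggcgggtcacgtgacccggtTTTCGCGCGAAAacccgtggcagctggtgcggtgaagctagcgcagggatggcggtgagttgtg
Prc1: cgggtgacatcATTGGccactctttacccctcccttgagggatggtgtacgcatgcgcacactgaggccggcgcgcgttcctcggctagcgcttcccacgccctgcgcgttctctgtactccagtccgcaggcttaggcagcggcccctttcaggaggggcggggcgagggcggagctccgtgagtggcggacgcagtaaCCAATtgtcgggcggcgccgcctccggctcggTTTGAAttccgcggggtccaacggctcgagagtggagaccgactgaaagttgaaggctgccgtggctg
Cdc20: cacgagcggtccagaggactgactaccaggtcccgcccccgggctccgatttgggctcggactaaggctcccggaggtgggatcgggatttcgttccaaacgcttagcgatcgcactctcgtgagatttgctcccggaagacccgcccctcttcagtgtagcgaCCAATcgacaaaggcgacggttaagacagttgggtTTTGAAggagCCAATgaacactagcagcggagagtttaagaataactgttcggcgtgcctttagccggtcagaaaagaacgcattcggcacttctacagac
The E2F letters began at -139 and -135 in Mcm6 and at -14 and -10 in Mcm2 (bases from the annotated start), and after the start in Pole2. The CHR letters began at -18 in Prc1 and at -51 in Cdc20, each with CCAAT letters within the same window. Mcm2 (-215 and -175) and Pole2 (-234 and -99) hold CHR letters as well, and are the 2 replication windows of 15 that do.

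In osteoblast cultures, replication and mitotic genes were higher in the SCI pool than in the sham pool. By the size rule (at least 2-fold, both arrays of one pool above both of the other, detected on both arrays of at least one) 20 of 35 genes were higher, 10 of each class, and 0 were lower, where 2.02% of all genes detected were higher and 1.41% lower. All 35 genes had both SCI arrays above both sham arrays, against 23.9% of all genes higher in that way and 24.6% lower. The median difference was 1.05 on the log2 scale for replication genes and 1.24 for mitotic genes (2.07-fold and 2.36-fold), against -0.00 for all genes. Differences ran between 0.33 for Mki67 and 1.77 for Prc1. With every array scaled to a common median of its probes in place of quantile normalisation, 10 genes were higher and 0 lower, while the calls over all genes were 95 higher and 214 lower in place of 167 higher and 117 lower.

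**Figure D1:**
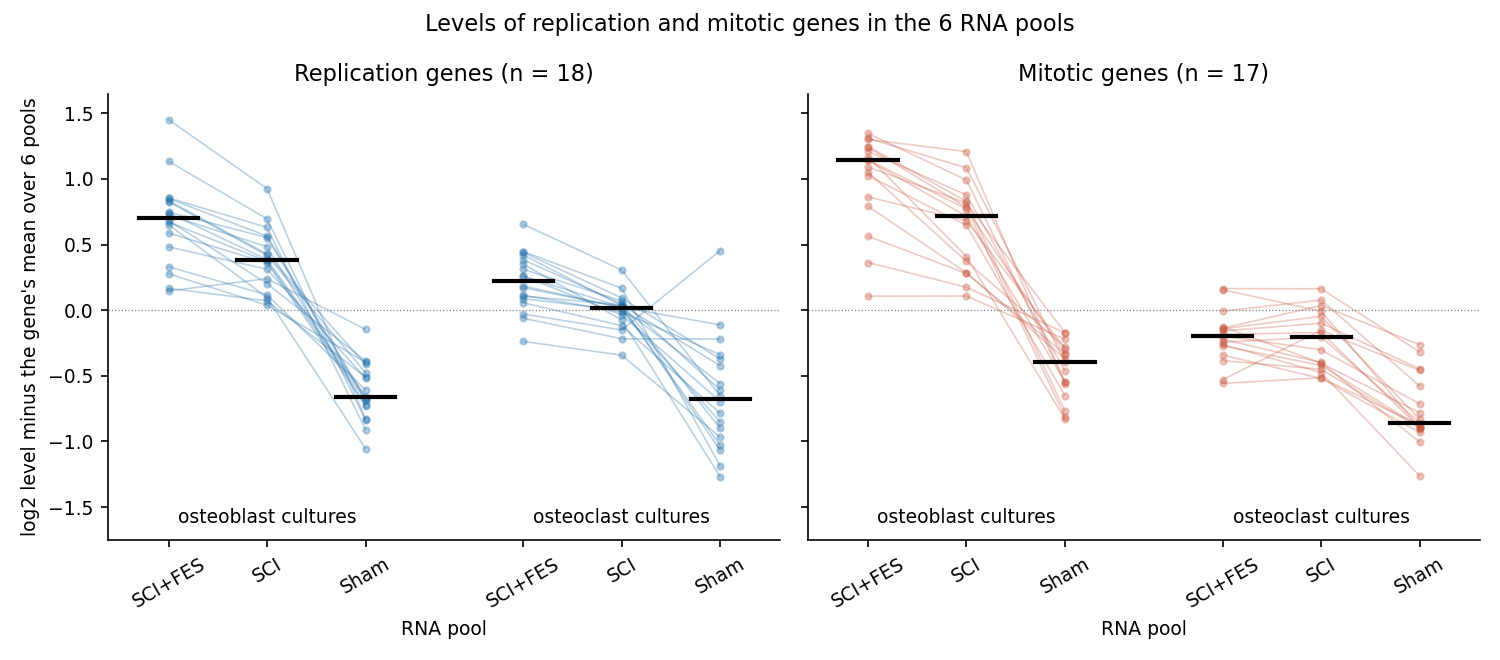
Level of each gene in each pool (log2, mean of 2 arrays, minus that gene's mean over the 6 pools), replication genes left and mitotic genes right. Each line joins 1 gene across the 3 treatments of a culture type and black bars are class medians. In osteoblast cultures the replication medians are 0.70 (SCI+FES), 0.38 (SCI) and -0.66 (sham), and the mitotic medians 1.14, 0.72 and -0.39. In osteoclast cultures the mitotic medians are -0.20 (SCI+FES), -0.20 (SCI) and -0.86 (sham).

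Of the licensing and helicase genes 5 of 8 were called. The MCM2-7 ring unwinds DNA at the fork, and its subunits differed in size of difference. Mcm6 read 11.18 and 11.08 in the SCI pool, against 9.72 and 9.46 in the sham pool (1.54 ± 0.14 SE, 2.91-fold). Mcm2 read 9.69 and 9.72 in the SCI pool, against 8.43 and 8.51 in the sham pool (1.24 ± 0.04). For both, the lowest SCI array was more than 2-fold above the highest sham array. Mcm3 (1.15) and Mcm7 (1.04) were called as well, and Cdc6, which loads the ring at origins, differed by 1.22, although only 1 of 2 sham arrays detected it. Mcm5 (0.72) and Mcm4 (0.43) did not reach 2-fold. Mcm10, which joins the helicase at activation, was at least 1.58-fold higher in SCI and not detected in the sham pool.

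Among genes of the fork itself 4 of 7 were called. Pole2, a subunit of the leading-strand polymerase epsilon, read 9.30 and 9.31 in the SCI pool, against 7.77 and 7.77 in the sham pool (1.53 ± 0.00). Its duplicates lay far closer to each other than the pools did. Rpa2 of the single-strand binding complex (1.23), the ligase Lig1 (1.08) and the flap nuclease Fen1 (1.06) were called. The clamp loader genes Rfc4 (0.84) and Rfc3 (0.58) and the clamp Pcna (0.59) were not. Rrm2, the regulated subunit of ribonucleotide reductase, had the largest replication difference, with 11.01 and 11.01 in SCI, against 9.40 and 9.11 in sham (1.75 ± 0.15, 3.37-fold). Tyms, which makes thymidylate, differed by 0.89, and Ccne1, the cyclin that acts at G1/S, by 0.39, the lowest of the class.

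Of the mitotic cyclins and their kinase all 3 were called. Ccna2, the cyclin of S phase and early mitosis, read 9.94 and 9.96 in SCI, against 8.31 and 8.39 in sham (1.60 ± 0.04, 3.03-fold). Cdk1, the kinase that starts mitosis, differed by 1.48 and its partner Ccnb2 by 1.11. Both genes of the anaphase-promoting complex (APC/C) were called. Its activator Cdc20 read 10.21 and 10.11 in SCI, against 8.64 and 8.61 in sham (1.54 ± 0.05), and its ubiquitin-conjugating enzyme Ube2c read 10.25 and 10.36, against 8.81 and 8.61 (1.60 ± 0.12). Every SCI array of these genes was above every sham array by more than 2-fold. Plk1 (1.26) and Aurkb (1.24), kinases of spindle assembly and chromosome alignment, were called, and the spindle checkpoint genes Bub1b (0.66) and Bub1 (0.65) were not. Prc1, which bundles midzone microtubules in cytokinesis, read 10.72 and 11.03 in SCI, against 9.09 and 9.12 in sham (1.77 ± 0.16, 3.41-fold), a difference within array error of that of Rrm2. The spindle assembly factor Tpx2 (1.34) and the spindle motor Kif11 (1.30) were called. The cytokinesis motor Kif20a (0.99), the spindle protein Nusap1 (0.97) and the microtubule depolymerase Kif2c (0.61) fell short of 2-fold. Mki67, which coats mitotic chromosomes, read 7.37 and 7.21 in SCI, against 7.02 and 6.91 in sham (0.33 ± 0.10). The kinetochore protein gene Cenpf was at least 1.16-fold higher in SCI and not detected in the sham pool.

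The SCI+FES osteoblast pool was higher still, by small steps. Against the SCI pool 0 of 35 genes reached the size rule, where 1.72% of all genes detected were higher and 1.51% lower. The arrays of the pools did not overlap for 31 of 35 genes, all 31 higher in SCI+FES, against 22.9% of all genes higher and 23.0% lower. The median difference was 0.26 for replication and 0.36 for mitotic genes, against 0.00 for all genes. Differences ran between -0.09 (Ccne1) and 0.56 (Mcm3) among replication genes, and between -0.00 (Mki67) and 0.76 (Aurkb) among mitotic genes. Aurkb read 10.62 and 10.68 in SCI+FES, against 9.99 and 9.79 in SCI. Bub1 followed with 0.68 and Bub1b with 0.51. Prc1, which led SCI against sham, differed by 0.09 here and its arrays overlapped, as did those of Rfc3, Ccne1 and Mki67.

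Against the sham osteoblast pool 28 of 35 genes were higher in the SCI+FES pool, 14 of each class, and 0 were lower, where 4.27% of all genes detected were higher and 3.29% lower. Both SCI+FES arrays were above both sham arrays for all 35, against 24.7% of all genes higher and 27.0% lower. One of them, Mcm10, has only a bound, at least 1.77-fold, since the sham pool did not detect it. Medians were 1.33 for replication and 1.67 for mitotic genes. Rrm2 read 11.48 and 11.58 in SCI+FES, against 9.40 and 9.11 in sham (2.28 ± 0.16, 4.85-fold). Ube2c differed by 2.05 ± 0.12, Ccna2 by 2.02 ± 0.08, Aurkb by 2.00 ± 0.04 and Pole2 by 1.97 ± 0.08. Cdc20 (1.89), Mcm6 (1.77) and Mcm3 (1.71) came next in their classes, and Ccne1 (0.29) and Mki67 (0.33) had the lowest differences. Genes called here and not in SCI against sham were Tyms (1.30), Rfc4 (1.25), Pcna (1.07), Mcm10, Bub1 (1.33), Kif20a (1.26), Bub1b (1.16) and Nusap1 (1.16). This comparison shares the sham pool with SCI against sham, so their lists are not independent. The order SCI+FES above SCI above sham, with no overlap of arrays at either step, held for 31 of 35 genes and for 5.53% of all genes.

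**Figure D2:**
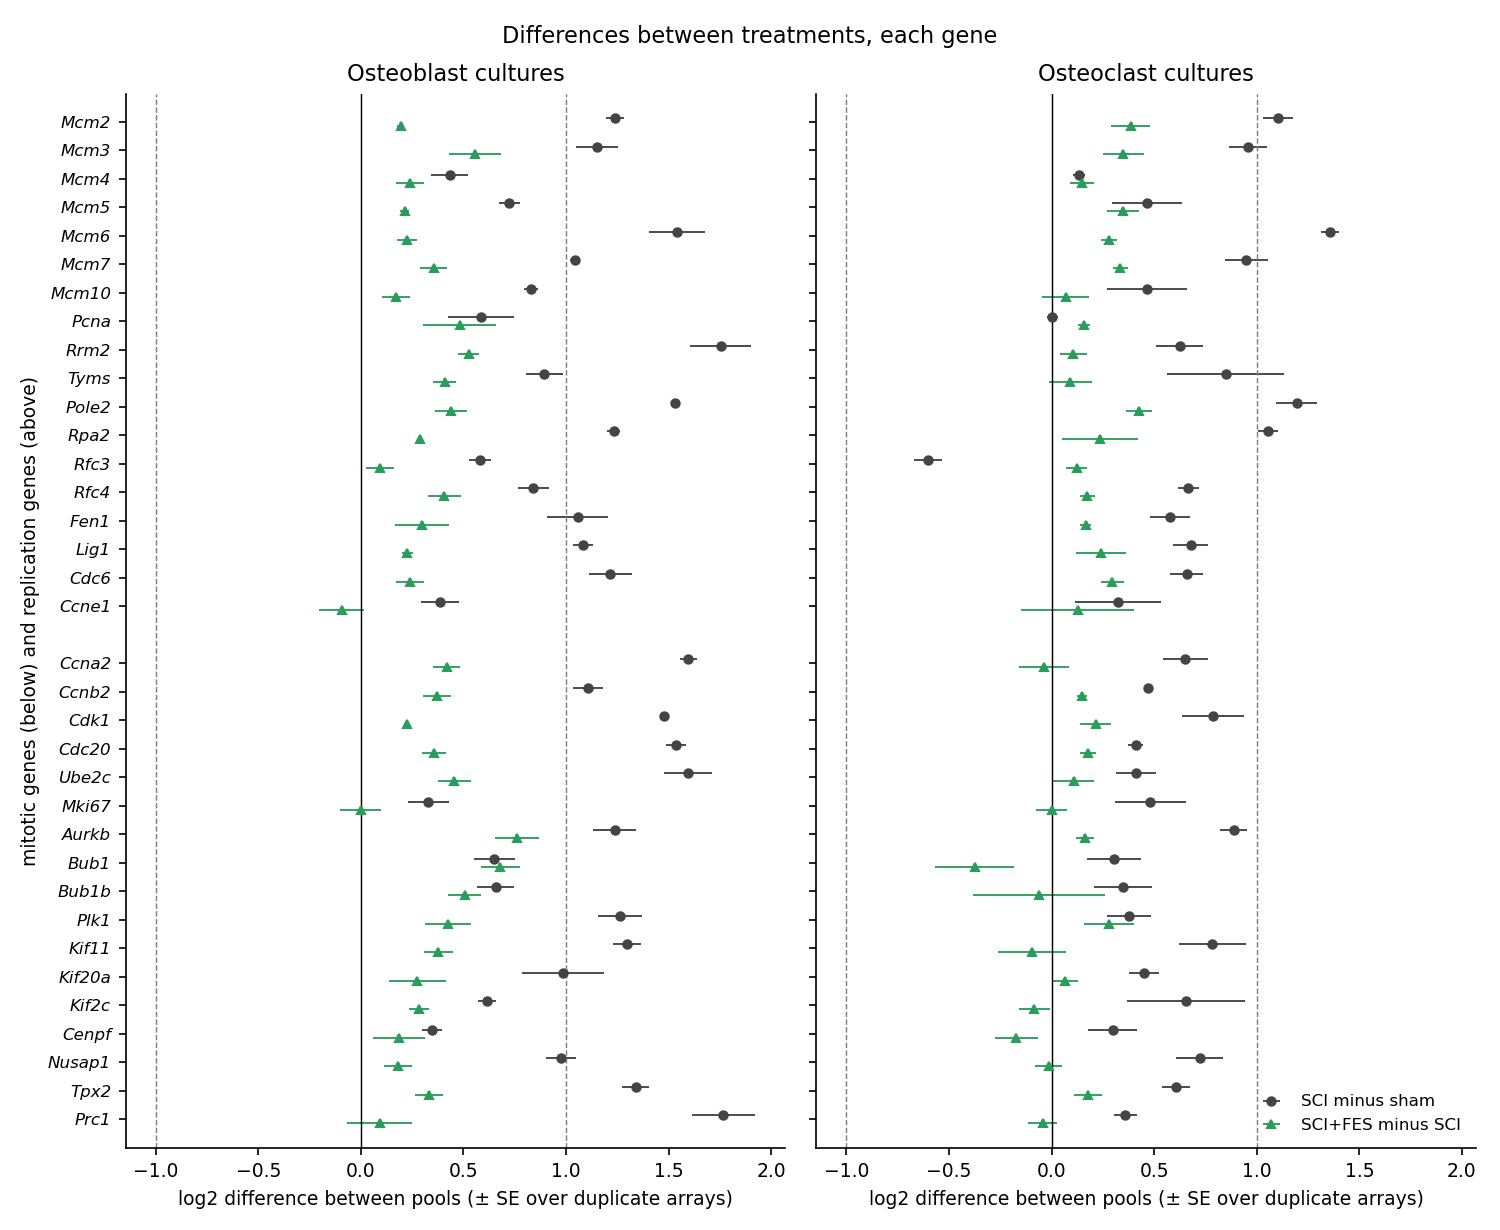
Differences between pools for all 35 genes (log2, x axis), osteoblast cultures left and osteoclast cultures right. Circles are SCI minus sham, triangles SCI+FES minus SCI, bars ± SE over duplicate arrays, and dashed lines mark a 2-fold difference. In osteoblast cultures all 35 circles lie above 0 and 20 genes with a circle past the line are called, while no triangle reaches it. In osteoclast cultures the circle of Rfc3 alone lies below 0.

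In osteoclast cultures the same contrast was smaller and, among the 35 genes, was led by replication genes. In the SCI pool 4 of 35 genes were higher than in the sham pool by the size rule, all 4 replication genes, and 0 were lower, where 0.966% of all genes detected were higher and 1.87% lower. Mcm6 read 10.70 and 10.63 in SCI, against 9.34 and 9.29 in sham (1.36 ± 0.04, 2.56-fold). Pole2 read 8.47 and 8.60, against 7.41 and 7.26 (1.19 ± 0.10). Mcm2 differed by 1.10 ± 0.07 and Rpa2 by 1.06 ± 0.05. For these genes both SCI arrays were well above both sham arrays. Both arrays were higher in SCI for 33 of 35 genes, against 24.8% of all genes higher and 22.7% lower, and medians were 0.66 for replication and 0.47 for mitotic genes, against 0.00 for all genes. The count of 4 became 7 with a background offset of 16 and 12 with log2(signal + 16), and 0 were lower in both. Calls over all genes rose as well, from 74 higher and 143 lower to 111 and 196, and to 198 and 306.

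Exceptions were found among fork genes. Rfc3 read 10.42 and 10.35 in the SCI osteoclast pool, against 11.05 and 10.93 in the sham pool (-0.60 ± 0.07), so both SCI arrays were below both sham arrays. Pcna read 12.31 and 12.36 in SCI, against 12.32 and 12.34 in sham, and the arrays overlapped. Mcm4 differed by 0.13. The mitotic genes ran between 0.30 for Cenpf, not detected on any osteoclast array, and 0.89 for Aurkb. The 4 mitotic genes at the top in osteoblast cultures, Prc1, Ccna2, Ube2c and Cdc20, differed by 0.36, 0.65, 0.41 and 0.41.

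Against the SCI osteoclast pool 0 of 35 genes were called in the SCI+FES pool, where 0.309% of all genes detected were higher and 0.00% lower. All 18 replication differences were above 0, between 0.07 (Mcm10) and 0.43 (Pole2), with a median of 0.20, and 15 had arrays that did not overlap. Of the mitotic genes 9 differences were above 0 and 8 below, with a median of 0.00, between -0.38 (Bub1) and 0.28 (Plk1). The classes were not tested against each other, and with every array scaled to a common median both medians lay below 0 (-0.13 and -0.25). Over both classes arrays did not overlap for 21 genes higher and 2 lower in SCI+FES, against 19.0% and 21.0% of all genes. Bub1 read 7.69 and 7.40 in SCI+FES, against 7.79 and 8.05 in SCI, and the SCI+FES duplicates differed from each other by nearly as much as the pools did.

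Against the sham osteoclast pool 8 genes were higher in SCI+FES and 0 lower, where 1.74% of all genes detected were higher and 2.42% lower. Arrays did not overlap for 31 genes higher and 1 lower, against 24.4% and 24.5% of all genes. They were the replication genes Mcm6 (1.63 ± 0.03), Pole2 (1.62 ± 0.08), Mcm2 (1.49 ± 0.11), Mcm3 (1.31 ± 0.10), Rpa2 (1.29 ± 0.18) and Mcm7 (1.28 ± 0.11), and the mitotic genes Aurkb (1.05 ± 0.08) and Cdk1, which was just past 2-fold. Aurkb read 9.68 and 9.60 in SCI+FES, against 8.52 and 8.65 in sham, and Cdk1 read 10.40 and 10.25, against 9.17 and 9.47. Both arrays of SCI+FES were above both of sham in each case. Medians were 0.88 for replication and 0.59 for mitotic genes, with Rfc3 (-0.48) and Bub1 (-0.07) lowest in their classes. The full order SCI+FES above SCI above sham without overlap held for 19 genes, 13 replication and 6 mitotic, and for 4.45% of all genes. With every array scaled to a common median in place of quantile normalisation, the count of 8 genes higher became 2, and Rfc3 was called lower.

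**Figure D3:**
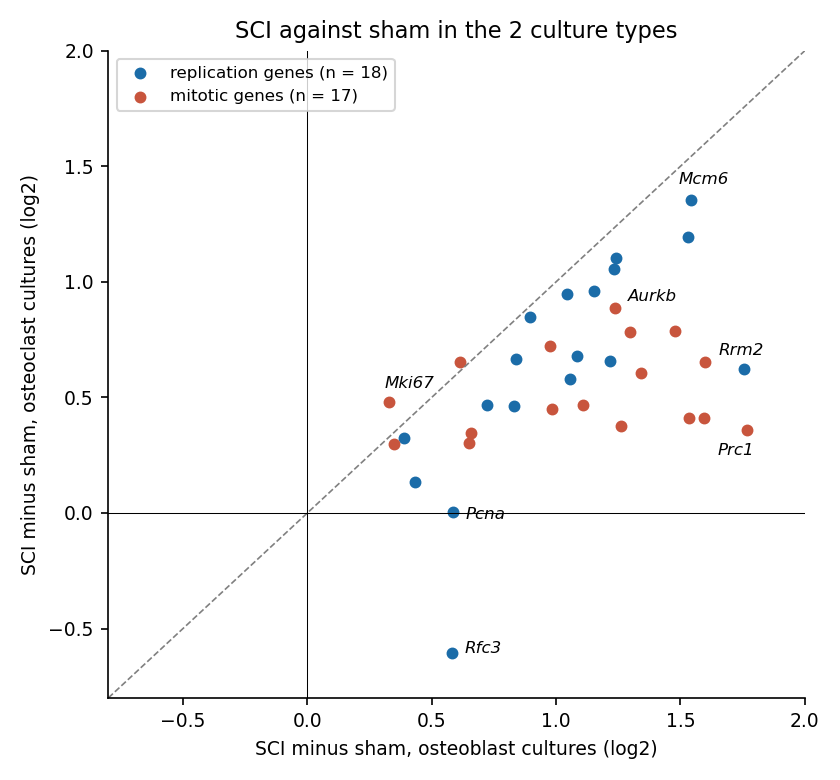
SCI minus sham in osteoblast cultures (x axis, log2) against the same in osteoclast cultures (y axis, log2), 1 point per gene, with the dashed line at equality. All 18 replication genes and 15 of 17 mitotic genes lie below the line. Mcm6 (1.54 and 1.36) lies close to it and Prc1 (1.77 and 0.36) far from it.

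The SCI-to-sham difference was larger in osteoblast than in osteoclast cultures for all 18 replication genes (median gap 0.28) and for 15 of 17 mitotic genes (median gap 0.53), against 48.9% of all genes. The exceptions were Mki67 and Kif2c. With 1 pool per treatment and culture type, the difference between culture types was not tested. The SCI+FES-to-SCI difference was larger in osteoblast cultures for 16 of 17 mitotic genes (median gap 0.22) and for 11 of 18 replication genes (median gap 0.04), against 50.8% of all genes. Across the 6 pools the level was highest in the SCI+FES osteoblast pool for 30 of 35 genes. It was lowest in the sham osteoclast pool for 24 and in the sham osteoblast pool for 10.

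The culture types themselves were compared with limma over pool means, 3 osteoclast against 3 osteoblast pools. Of 18 replication genes 0 were called lower or higher in osteoclast pools (adjusted p at most 0.05 and 2-fold, limma), and none had an unadjusted p under 0.05. Of 17 mitotic genes 1 was lower, and 7 had an unadjusted p under 0.05 in limma, as had 3771 of all 8913 genes tested, a like share. Over all 8913 genes tested 6.70% were lower and 4.91% higher. Kif20a averaged 8.35 ± 0.28 in osteoclast pools and 9.50 ± 0.66 in osteoblast pools (SD, n = 3 pools each), a difference of -1.16 ± 0.33 (SE) with an adjusted p of 0.0396 in limma. Its 3 osteoclast pools lay below all 3 osteoblast pools. That call was lost in limma on leaving out any 1 pool other than the sham osteoblast pool. The median difference was -0.83 for mitotic and -0.31 for replication genes, against 0.07 for all genes.

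Cdk1 averaged 9.92 ± 0.53 in osteoclast pools and 11.25 ± 0.93 in osteoblast pools (SD, n = 3 pools each), a difference of -1.33 with a limma adjusted p of 0.0786. Rrm2 differed by -1.03 (limma adjusted p = 0.21), with a 95% interval of -2.37 to 0.31. Mcm3 (0.20) and Mki67 (0.01) had the highest values of their classes, and their 95% intervals of -0.98 to 1.39 and -0.41 to 0.42 include 0. The deviations of same-treatment pools from their culture means correlated weakly over genes (r = 0.32 in sham, 0.15 in SCI and 0.20 in SCI+FES). Pools of unlike treatment were not set beside them, so pairing by treatment is an assumption of the block model and was not tested. With treatment as a block 6 mitotic genes were lower in osteoclast pools in limma, namely Cdk1, Kif20a, Ccnb2, Tpx2, Cdc20 and Prc1 (6.98% of all genes were lower), with adjusted p of 0.00645 for Cdk1 and 0.0369 for Prc1. Regardless of size, 8 mitotic and 6 replication genes then passed an adjusted p of 0.05 in limma, all lower in osteoclast pools, as did 14.7% of all genes. The gap between culture types differed between treatments, without a test. The osteoclast-minus-osteoblast median of mitotic genes was -1.42 in SCI+FES, -1.03 in SCI and -0.23 in sham pools, and that of replication genes -0.39, -0.39 and -0.05. Leaving out the sham osteoblast pool raised the limma count of genes lower to 13 of the 35, and leaving out any other pool gave 0. Calls over all genes were not counted in these fits, so the 13 has no background share. Culture type and days in culture cannot be told apart.

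**Figure D4:**
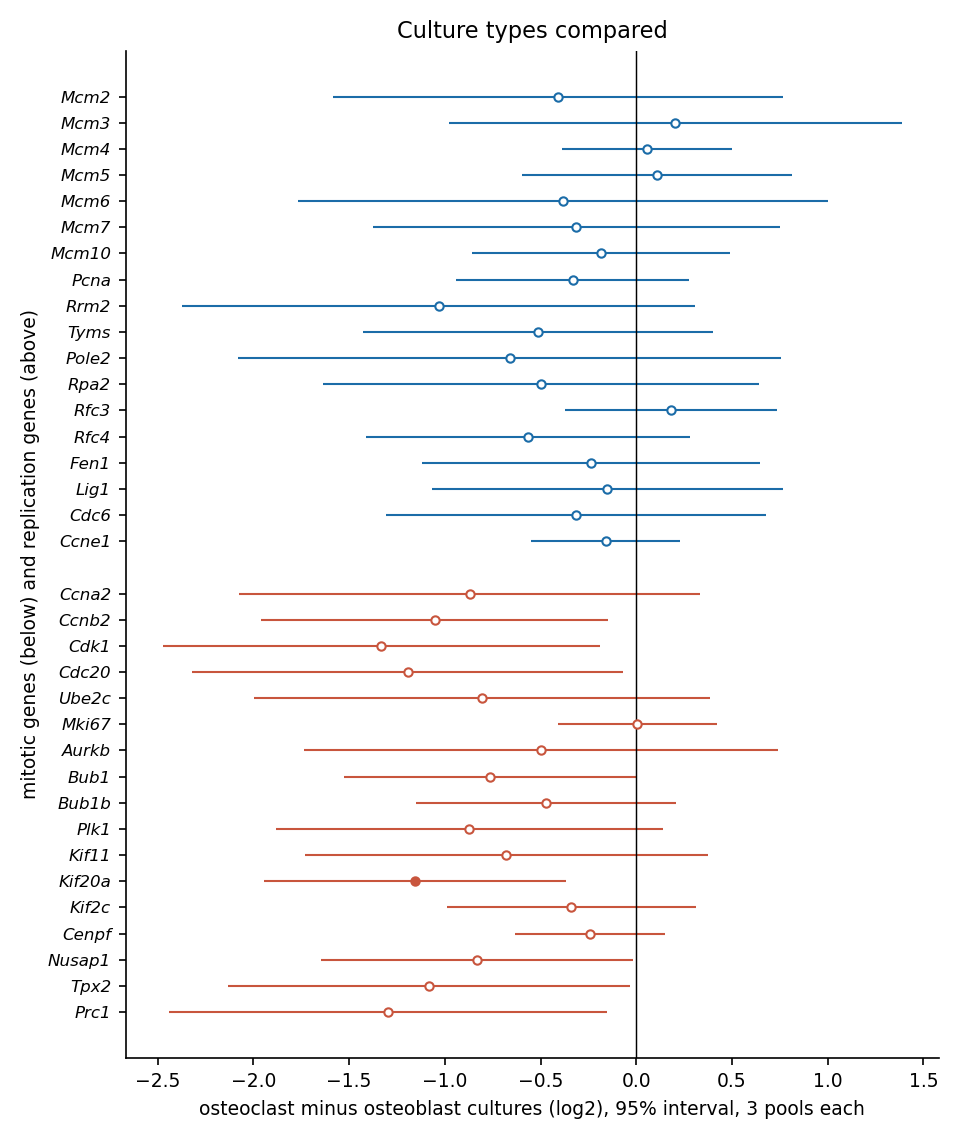
Osteoclast minus osteoblast cultures for each gene (log2, x axis) with the 95% interval from limma over 3 pools each, replication genes above and mitotic genes below. The filled point is Kif20a (-1.16), the only gene called. The other mitotic genes lie left of 0 apart from Mki67 (0.01), and replication genes lie between -1.03 and 0.20.

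Some genes of the same machinery outside the 35 were higher in SCI and SCI+FES osteoblast pools than in sham. Of 33 other replication genes with a probe, 28 of them detected, 6 were higher in SCI than in sham osteoblast pools and 0 lower (2.02% of all genes detected were higher), led by the histone chaperone gene Asf1b (1.43), the chromatin assembly factor Chaf1b (1.21) and the licensing inhibitor Gmnn (1.19). Of 36 other mitotic genes, 33 of them detected, 14 were higher and 0 lower, led by the kinetochore gene Spc25 (1.54), the checkpoint kinase Ttk (1.53) and the Cdk1 partner Cks2 (1.49). Medians over all with a probe were 0.37 and 0.87, below those of the 35 genes. In osteoclast pools 0 genes of either list were called in SCI against sham, where 0.966% of all genes detected were higher. Their medians there were 0.31 for other replication and 0.31 for other mitotic genes, so the lead of replication genes among the 35 was not seen in these lists. In SCI+FES against sham osteoclast pools 3 replication genes and 0 mitotic genes were higher, where 1.74% of all genes detected were. They were Timeless (1.18), Pold2 (1.03) and Chaf1b, which the sham pool did not detect and which has only a bound, at least 1.70-fold. In SCI+FES against sham osteoblast pools 12 replication and 21 mitotic genes of these lists were higher, where 4.27% of all genes detected were. Neither list had a call between SCI+FES and SCI pools of either culture type.

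Of 24 G1 cyclins, inhibitors and E2F genes with a probe, 19 of them detected, 1 was higher in SCI than in sham osteoblast pools, the antiproliferative gene Btg2 (1.41), and 1 lower, the damage response gene Gadd45a (-1.36), where 2.02% of all genes detected were higher and 1.41% lower. In SCI+FES against sham osteoblast pools 3 of 24 were higher and 1 lower, where 4.27% of all genes detected were higher and 3.29% lower. They were Btg2 (1.45), the activator of replication genes E2f1 (1.16), the repressor E2f8 (1.09) and, lower, Gadd45a (-1.45). E2f1 differed by 0.97 in SCI against sham. In osteoclast pools 1 of 24, Mdm2, the ubiquitin ligase of p53, was lower in SCI+FES than in sham (-1.02), where 2.42% of all genes detected were lower. Of 20 genes of this list tested in limma, 1 was called between culture types, where 4.91% of all genes were higher and 6.70% lower. It was the inhibitor Cdkn1b, higher in osteoclast than in osteoblast pools, at 8.84 against 7.57 (difference 1.27 ± 0.21 SE, limma adjusted p = 0.00572). Of 33 other mitotic genes tested 2 were lower in osteoclast pools in limma, near the 6.70% of all genes that were lower. They were Cks1b (-1.50, adjusted p = 0.021) and Cdkn3 (-1.46, adjusted p = 0.017).

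Of the marker lists for other cells, that of T and NK cells had its summed intensity in the order SCI+FES, SCI, sham in osteoblast pools. The sum of 11 T and NK cell markers (normalised intensity) was 10235 to 10636 on the SCI+FES arrays, 3473 to 3600 on the SCI arrays and 3108 to 3215 on the sham arrays. The step of the sum between SCI and sham was small, and its brightest gene, Cd8a, averaged 12.54, 10.59 and 10.78 in these pools. Over the 11 genes the median SCI-to-sham difference was 0.62. Of them 2 were called higher, Cd3d (1.39) and Cd3g (1.32), and 0 lower, where 2.02% of all genes detected were higher. Cd3d, a T cell receptor chain, averaged 9.86, 7.98 and 6.58 in SCI+FES, SCI and sham and was not detected in the last. Cd4 had the reverse order, at 7.89, 8.58 and 8.76, and Cd5 was not detected in any pool. In SCI+FES 6 of the 11 were higher than in SCI, where 1.72% of all genes detected were. Against sham 7 were higher in SCI+FES, where 4.27% of all genes detected were, and 0 were lower in either comparison. In osteoclast pools the sums were 3046 to 3074 (SCI+FES), 2277 to 2332 (SCI) and 2082 to 2143 (sham). Macrophage markers summed to 80649 to 81762 in SCI+FES, 56584 to 57903 in SCI and 61802 to 62180 in sham osteoblast pools, with the SCI pool lowest. Of these 8 markers 0 were called in SCI against sham. In SCI+FES against sham 2 were higher and 0 lower, where 4.27% of all genes detected were higher. Both had the order of the cell cycle genes, Cd163 at 9.78, 8.31 and 7.69 and Cd14 at 14.19, 13.03 and 12.71. Of 7 mast cell and eosinophil markers 3 were higher in SCI than in sham osteoblast pools and 0 lower, where 2.02% of all genes detected were higher. These 3 had the order of the cell cycle genes over SCI+FES, SCI and sham. Cpa3 averaged 9.06, 8.88 and 7.36, Hdc 8.79, 7.79 and 6.63, and Fcer1a 7.99, 7.42 and 6.39. Hdc and Fcer1a were not detected in the sham pool. The sum of the 7 had the reverse order, at 2167 to 2284 in SCI+FES, 2677 to 2689 in SCI and 2980 to 3111 in sham. So did its brightest gene, Prg2 (9.49, 10.58 and 11.20), and Epx (6.70, 6.99 and 7.41). B cell, erythroid and endothelial markers had 0 genes detected on both arrays of any osteoblast pool.

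Markers of the cultured cells differed between osteoblast pools too. Of 10 osteoblast markers 4 were higher in SCI than in sham, the matrix genes Ibsp (2.03) and Bglap (1.98), the phosphatase Alpl (1.18) and the osteocyte gene Dmp1, which the sham pool did not detect (at least 3.83-fold). None was lower, where 2.02% of all genes detected were higher and 1.41% lower. Col1a2 (15.15 in SCI, 15.06 in sham) and Spp1 (14.17 and 14.19) hardly differed, and Runx2 and Sp7 were not detected. Between SCI+FES and SCI 5 were lower and 0 higher, where 1.51% of all genes detected were lower and 1.72% higher. In SCI+FES against sham 2 were lower, Alpl (-1.54) and Col1a1 (-1.19), and 0 higher, where 3.29% of all genes detected were lower. Alpl averaged 8.68 in SCI+FES, 11.40 in SCI and 10.22 in sham. The sum of 7 osteoclast markers was 6043 to 6337 in SCI+FES, 6493 to 6644 in SCI and 9924 to 10344 in sham osteoblast pools. Of the 7, Mmp9 was called lower in SCI than in sham (-1.02), where 1.41% of all genes detected were lower. In SCI+FES against sham 1 was higher, the carbonic anhydrase gene Car2 (2.34), and 1 lower, Ctsk (-1.10). There 4.27% of all genes detected were higher and 3.29% lower. Car2 alone was called in SCI+FES against SCI (1.99), where 1.72% were higher. Car2 had the order of the cell cycle genes, at 10.29, 8.31 and 7.96, and Ctsk the reverse order, at 11.99, 12.42 and 13.08.

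In osteoclast pools the macrophage sum was 47299 to 48489 in SCI+FES, 44215 to 44874 in SCI and 45710 to 46174 in sham. Of 8 macrophage genes 2 were higher in SCI than in sham, Adgre1 (1.98) and C1qb (1.18), and 0 lower, where 0.966% of all genes detected were higher. In SCI+FES against sham 3 were higher, these 2 and C1qa, and 0 lower, where 1.74% of all genes detected were higher. Adgre1 averaged 10.23 in SCI+FES, 10.63 in SCI and 8.65 in sham. C1qb (12.02, 11.47 and 10.29) and C1qa (11.27, 10.71 and 9.94) had the order of the cell cycle genes. Cd14, not called and chosen after its values were seen, averaged 13.25, 13.02 and 13.40. Granulocyte precursor markers summed to 4890 to 4904 in SCI+FES, 1552 to 1559 in SCI and 1389 to 1402 in sham, and erythroid markers to 2116 to 2201, 2404 to 2456 and 4842 to 4901. Of 8 granulocyte markers S100a8 alone was called (12.00, 9.83 and 9.31), higher in SCI+FES than in SCI (2.17) and sham (2.69). There 0.309% and 1.74% of all genes detected were higher. Prtn3, Ltf and S100a9 were not detected in any osteoclast pool. Of 8 erythroid markers only Hba-a2 and Hbb were called, lower than in sham in SCI and SCI+FES, where 1.87% and 2.42% of all genes detected were lower. Of 10 osteoblast markers 1 was lower in SCI than in sham, the collagen gene Col1a2 (-2.25), where 1.87% of all genes detected were lower. In SCI+FES against sham 2 were lower, Col1a2 (-2.42) and Sparc (-1.15), where 2.42% of all genes detected were lower. None was higher in either comparison. The part of these cell types in the differences of the cell cycle genes was not tested.

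Detection and probes limit some genes. Of the 35 genes 27 were detected on all 12 arrays. The second probe of Mcm5 differed by 0.64 in SCI against sham osteoblast pools, close to the 0.72 of the brighter probe, and the second probe of Kif11 stayed below detection throughout. Of the 4 genes named through RefSeq, Gins1, of the helicase, differed by 0.92 in SCI and 1.27 in SCI+FES against sham osteoblast pools, and the mitotic kinase Aurka by 0.86 and 1.18. Gins2 differed by 0.46 and 0.60, and the licensing factor Cdt1, not detected in the sham osteoblast pool, was at least 1.47-fold and at least 1.71-fold higher. In osteoclast pools Aurka differed by 0.00 between SCI and sham.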

How the data were processed

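Total RNA pools of marrow cultures were labelled as biotinylated cRNA and read on Illumina arrays, per the labels. The deposited table holds, per the file headers, 22523 probes, with a mean signal intensity and a detection p-value from every one of the 12 arrays. Its intensity values are background-subtracted and not normalised between arrays (26.8% to 30.4% of values below 0). A second table holds the authors' processed intensity values, which are linear in scale, have array medians between 13.8 and 19.1, and matched the scanner values after rescaling each array. Which software made them is not given in the sources used here.

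Here, intensities were corrected by limma's normexp with an offset of 50, quantile normalised and taken to log2 (limma 3.58.1, R 4.3.3), and the brightest probe stood for a gene. The median signal of 9.84 to 17.0 per array and the 2 arrays per pool limit the precision for dim genes. Treatment comparisons used the size rule, since each treatment has 1 pool, and duplicates count as 1 sample. Culture types were compared with limma's moderated test on 3 pool means each, Benjamini-Hochberg adjusted over all genes tested, with treatment as a block as an alternative. The treatment pairing was described by the correlation of pool deviations over genes (0.32, 0.15 and 0.20), which does not establish it. On simulated data for this comparison with 8913 genes, 200 genes were changed by 1.5 or 2 log2, and 100% of those at each size were recovered. The simulation gave all genes 1 common spread, from the median residual variance, and no treatment differences. That recovery does not carry over to genes that differ between treatments, such as Cdk1 (SD 0.53 in osteoclast and 0.93 in osteoblast pools). For these, a missing call is not evidence of no difference. A lower bound takes an undetected probe at the lowest detected signal of its array. Genes named with array values were the up to 4 called of each class with the largest difference, plus the class extremes. For the other lists, calls are given for part of the comparisons, with the largest named in some. Calls among smooth muscle and megakaryocyte markers are not described. Alternatives were the offset, a floor with log2(signal + 16), median scaling, normalisation within culture type, the authors' values, detection filters, probe averaging, an intensity trend in limma, leaving out each array or pool, and the 4 genes found through RefSeq. The last was chosen after seeing the data. The genes and all lists were chosen with earlier results of these data known. Promoters and older symbols came from RefSeq (GRCr8).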

Additional observations from a re-analysis of the deposited data

Results flagged for a closer look

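For 3 of 35 genes every array of one culture type differed one way and every array of the other type the opposite way, under the same contrast. How many of all genes did so was not counted, so these 3 have no background share. In SCI against sham, 23.9% of all genes had arrays apart and higher in osteoblast cultures, and 22.7% apart and lower in osteoclast cultures. The same shares were 22.9% and 21.0% in SCI+FES against SCI, and 24.7% and 24.5% in SCI+FES against sham. The difference between culture types was not tested. Rfc3, of the clamp loader, differed between SCI and sham by 0.58 in osteoblast and by -0.60 in osteoclast cultures, and between SCI+FES and sham by 0.68 and -0.48. Bub1, of the spindle checkpoint, differed between SCI+FES and SCI by 0.68 in osteoblast and by -0.38 in osteoclast cultures. Cenpf differed in the same contrast by 0.19 and -0.17, and was not detected on any osteoclast array.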

How the results depend on the processing

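In osteoblast cultures the class medians of each treatment contrast kept their sign under every alternative, and 0 genes were called lower. The 20 genes higher in SCI against sham became 10 under a common median for all arrays, 24 with an offset of 16, 26 with log2(signal + 16) and 23 with the authors' values, and stayed between 19 and 21 otherwise. Calls over all genes, 167 higher and 117 lower, also rose. They became 227 and 161 with the offset of 16, 323 and 253 with log2(signal + 16), and 227 and 128 with the authors' values. The common median shifts the median of detected genes by -0.22. The 28 genes higher in SCI+FES against sham stayed between 26 and 31. In osteoclast cultures 7 genes were higher in SCI against sham with an offset of 16 and 12 with log2(signal + 16), in place of 4. Calls over all genes there were 111 higher and 196 lower, and 198 and 306, in place of 74 and 143. In SCI+FES against sham osteoclast pools 15 of the 35 genes were higher with log2(signal + 16) in place of 8. Calls over all genes were then 325 higher and 407 lower in place of 133 and 185. With the common median 2 of the 35 were higher and 1 lower, where detected genes shift by -0.40. Leaving out 1 array moved none of these counts among the 35 genes by more than 1.5 times. The medians of SCI+FES against SCI in osteoclast cultures turned to -0.13 (replication) and -0.25 (mitotic) at the common median. That scaling also turned the split of all called genes towards lower, to 286 higher and 411 lower (in place of 360 and 277) in SCI+FES against sham osteoblast pools, 61 and 212 (in place of 74 and 143) in SCI against sham osteoclast pools, 49 and 685 (in place of 133 and 185) in SCI+FES against sham osteoclast pools, and 319 and 703 (in place of 438 and 597) in osteoclast against osteoblast pools. The cause was not tested.

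For osteoclast against osteoblast cultures the count of genes lower, 1, became 7 with the common median, 0 with no detection filter and 6 with treatment as a replicate block, and ran from 0 to 13 on leaving out 1 pool. Calls over all genes were not counted on leaving out a pool. The difference of Mki67 turned to -0.012 with log2(signal + 16), -0.17 with the common median, -0.10 with the authors' values, and below 0 without the sham osteoblast, SCI+FES osteoclast or SCI osteoclast pool, in a range of -0.10 to 0.17 over the pools left out. That of Mcm3 turned to -0.039 with the common median, -0.27 without the sham osteoblast pool and -0.07 without the SCI+FES osteoclast pool, in a range up to 0.58. Signals near background, as for Ccne1, Cenpf and Mki67, limit the size of any difference.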
